A study of Mus musculus with 281 samples.

Results

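The cells described here were Slc26a4+/+ spindle cells (SCs) and root cells (RCs) of the mouse cochlea, the pendrin cells (PDCs) of the stria vascularis, split by whether they held Slc26a4 RNA. Of the single-cell profiles of Slc26a4+/+ mice 32 were chosen and 140 were not, which makes them 18.6% of that genotype and 11.4% of all profiles. The 32 were 14 SCs and 8 RCs with high Slc26a4, and 6 SCs and 4 RCs with none. A cell was taken as an SC or RC when the mean log2(CPM + 1) of 4 marker genes (Anxa1, Wfdc18, Krt18 and P2rx2 for SCs, Epyc, Fxyd6, Lum and Gas1 for RCs) led the scores of intermediate cells (IMCs), marginal cells (MCs) and Reissner's membrane by at least 1. CPM is the count of a gene as a share of all counts of the cell, scaled in the usual way. Cells with at least 100000 counts were then called high at 100 CPM of Slc26a4 or more and none under 10 CPM. The measured levels of Slc26a4 and of the marker genes therefore chose the cells, and their values are a description only.

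All mice were of strain 129S6, and the 32 cells were collected at postnatal days 22 to 40 (P22 to P40). The other genotypes were Slc26a4+/- (40 cells) and Slc26a4-/- (69 cells). Their SCs and RCs used below were collected at P26 to P33 and at P24 to P34. Each profile is 1 cell, drawn into a glass micropipette after collagenase treatment and amplified with Smart-Seq2, a full-length cDNA method. The labels tie no cell to a mouse, so each genotype counted as 1 sample. No test was possible, no p-value is given, and every SD is over cells.

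Pendrin, the product of Slc26a4, exchanges chloride for bicarbonate at the apical membrane and keeps the endolymph from turning acid. SCs line the edges of the stria vascularis and RCs send processes from the outer sulcus into the spiral ligament. Both meet the endolymph and are known for pendrin, which is why the presence or absence of its RNA among cells of one type is of interest. The gene is found at chr12:31519827-31559969 (GRCm38, minus strand).

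The 300 bases around the start site are shown for Slc26a4, for Car12, one of the genes highest with it in RCs, and for Frzb, a gene found in RCs without it. They come from RefSeq (GRCm38.p6), run from 250 bases before to 50 bases after the start in the direction of the gene, and were chosen after the values were seen. Slc26a4 is shown at chr12:31559935-31560234 (minus strand), Car12 at chr9:66713436-66713735 (plus) and Frzb at chr2:80447347-80447646 (minus).
Slc26a4: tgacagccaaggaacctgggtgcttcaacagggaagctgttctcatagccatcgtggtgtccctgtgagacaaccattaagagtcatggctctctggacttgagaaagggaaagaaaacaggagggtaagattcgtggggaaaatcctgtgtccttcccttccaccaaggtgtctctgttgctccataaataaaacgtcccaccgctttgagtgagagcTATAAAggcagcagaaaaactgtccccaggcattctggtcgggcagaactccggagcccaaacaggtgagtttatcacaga
Car12: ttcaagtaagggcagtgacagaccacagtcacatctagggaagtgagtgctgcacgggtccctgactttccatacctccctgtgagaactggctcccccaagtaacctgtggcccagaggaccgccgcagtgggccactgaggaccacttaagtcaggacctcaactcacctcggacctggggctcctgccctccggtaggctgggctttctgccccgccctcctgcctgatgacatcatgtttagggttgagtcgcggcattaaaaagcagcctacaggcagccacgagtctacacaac
Frzb: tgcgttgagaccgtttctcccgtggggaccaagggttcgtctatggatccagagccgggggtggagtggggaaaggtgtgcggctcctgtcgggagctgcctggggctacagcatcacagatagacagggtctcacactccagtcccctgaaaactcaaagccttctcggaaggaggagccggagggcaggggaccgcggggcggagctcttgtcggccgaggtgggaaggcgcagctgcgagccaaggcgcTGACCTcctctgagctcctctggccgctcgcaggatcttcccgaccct
Capitals mark the letters TATAAA in the Slc26a4 window (its first base at -31 from the start site) and AGGTCA, read on the opposite strand, in the Frzb window (its first base at 2). These and 2 other motifs, TGTTTAC and ACAAAG, were searched on both strands, and none was found in the Car12 window. TATAAA stands in 13.6% of 32851 promoter windows of this length, AGGTCA in 16.3%, TGTTTAC in 3.65% and ACAAAG in 18.7%.

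Slc26a4 was either plentiful or close to absent. In the 14 high SCs it ran from 278.998 to 3586 CPM with a median of 1202, and in the 6 SCs without it the highest cell had 1.49 CPM. In the RCs the 8 high cells ran from 485 to 4825 CPM, and the 4 others held 3.15, 0, 0 and 0 CPM. Between the classes lay 2 SCs, at 19.5 and 32.4 CPM, and 0 RCs. A further 3 SCs or RCs had too few counts. Depth did not separate the RC classes, with medians of 1348874 counts in high cells and 1303226 in the others, and 5433.5 against 5864 genes detected. In SCs the cells without Slc26a4 had more counts, 2313260 against 1772170 at the median, and 7048.5 against 6818 genes.

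**Figure D1:**
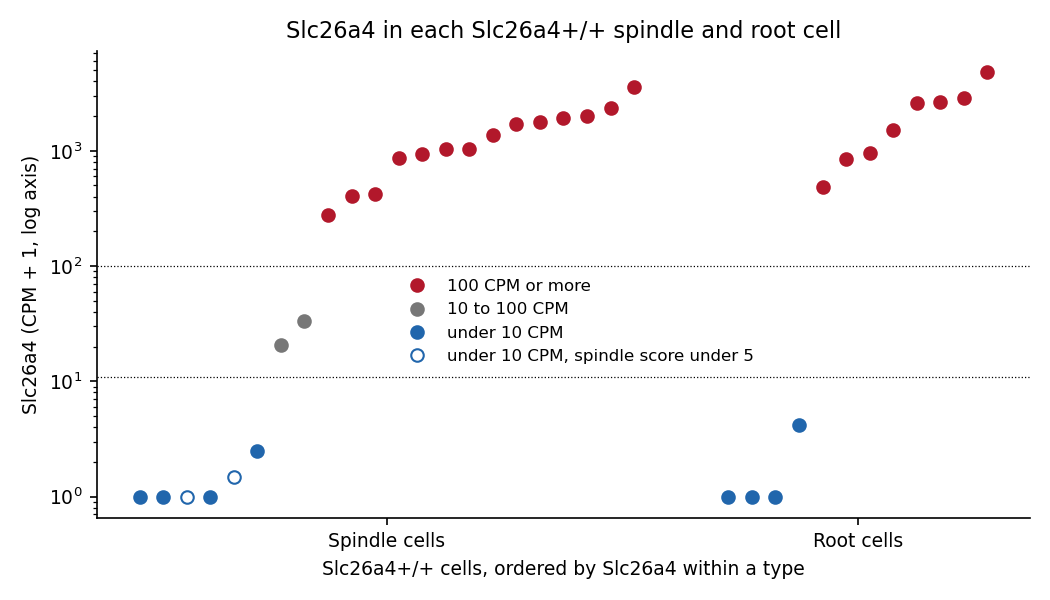
Slc26a4 of each Slc26a4+/+ SC and RC, as CPM + 1 on a log axis, with dotted lines at the limits of 10 and 100 CPM. High cells start at 278.998 CPM (SCs) and 485 CPM (RCs), and cells without Slc26a4 end at 1.49 and 3.15 CPM. Open circles are the 2 cells whose spindle score was under 5.

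Of the 32 cells, 30 had a score of over 5 for their own type. Cells WT_160 and WT_207, both SCs without Slc26a4, had spindle scores of only 2.73 and 3.34, and they entered by leads of 1.27 and 1.74 over still lower scores. The macrophage and granulocyte gene Lyz2 stood at 86916.5 CPM in WT_160 and 12447 CPM in WT_207 and at 0 in the other 4 SCs without Slc26a4. S100a8, a granulocyte gene, reached 34543 CPM in WT_207. These 2 cells are called weak SCs here, by a limit of 5 set after the values were seen, and many SC results are given with and without them. Unless said otherwise, an SC value includes them. WT_033, also an SC without Slc26a4, was kept although its spindle score of 10.63 led its MC score of 9.29 by only 1.34. It held 6109 CPM of Lrp2 and 1091 CPM of Kcnq1, both MC genes of the rule, and its label is uncertain. A lead of at least 2 would leave 3 SCs without Slc26a4. The split by sequencing run was also uneven: the run dates 1 to 4 held 0, 1, 11 and 2 high SCs and 2, 0, 3 and 1 SCs without Slc26a4. In RCs they held 3, 1, 2 and 2 high cells and 1, 0, 1 and 2 others.

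In RCs few genes had no overlap between the classes. Of 8028 genes at a mean of at least 10 CPM, 9 were higher in all 8 high cells than in all 4 others (0.112% of genes) and 13 were lower (0.162%). The 9 were Slc26a4 itself, Galnt7, Car12, Dclk1, Ephx1, Pax2, Lect1, Lbh and Arid1b. The 13 were Prss36, Nr2f1, Frzb, Colgalt2, Cd24a, Serinc1, Tmem54, Usp39, Gpkow, S100a1, Atox1 and the unnamed loci B230118H07Rik and Gm17709. For some genes the gap lay at the level of a few counts. The lowest RC without Slc26a4 held 1.27 CPM of Tmem54, Usp39, Gpkow and Frzb and 1.57 CPM of Gm17709. The lowest high RC held 0.788 CPM of Lbh, against at most 0.585 CPM in the others. A weaker measure, a difference of at least 1 in mean log2(CPM + 1), was passed by 2577 genes upward (32.1%) and 2494 downward (31.1%), so that 63.2% of all genes passed it among so few cells. Both counts depend on how many cells the classes hold and do not show by themselves that the classes differ. Counts of gene groups below are read against these shares.

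One gene without overlap was Car12 (chr9:66713686-66766845), a carbonic anhydrase of the cell surface that interconverts carbon dioxide and bicarbonate. In order of falling Slc26a4, the 8 high RCs held 11823, 3993, 3769, 7548, 2021, 2226, 2096 and 4276 CPM of Car12, and the 4 RCs without Slc26a4 held 242.5, 0, 0.55 and 7.61 CPM. The lowest high cell was thus above the highest other cell. The mean log2(CPM + 1) was 11.93 ± 0.91 (SD, 8 cells) against 2.92 ± 3.60 (SD, 4 cells), a difference of 9.02. Car12 was not particular to RCs: 13 of 17 MCs held at least 100 CPM of it, with a median of 1805 CPM.

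Galnt7 (chr8:57523828-57653032), an enzyme of O-linked protein glycosylation, had the widest gap between the classes among the genes named for RCs. It ran from 315 to 1178 CPM in the high cells and was at 0, 0.293, 0 and 0 CPM in the others, a difference of 9.08. Dclk1 (chr3:55242364-55539068), a kinase that binds microtubules, ran from 781 to 5986 CPM in high cells. In the RCs without Slc26a4 it stood at 375, 0.585, 2.2 and 6.34 CPM (difference 8.24). Ephx1, the microsomal epoxide hydrolase, ran from 529 to 2400 CPM against 372, 0, 0 and 2.54 CPM (difference 7.38). For Car12, Dclk1 and Ephx1 the highest of the 4 cells was the same one, WT_292, which was also the only one of them with any Slc26a4 count. Dclk1 and Ephx1 were not particular to RCs either. Of 17 MCs, 13 and 12 held at least 100 CPM of them, with medians of 5650 and 312 CPM. Slc26a4 had a mean of 0.27 CPM in these MCs. Of 10 cells led by the Reissner's membrane score, 6 held at least 100 CPM of Slc26a4, 9 of Dclk1, 8 of Ephx1, 5 of Car12 and 2 of Galnt7. Galnt7 reached 100 CPM in 0 of 17 MCs but in 20 of 77 IMCs.

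Pax2 (chr19:44756045-44837871), a transcription factor of the developing inner ear, did not overlap either, but some high cells were low. They ran from 6.86 to 576 CPM, and 5 of 8 reached 100 CPM, against at most 1.27 CPM in the others (difference 6.65). Aqp5, a water channel, was at 0.807 and 0 CPM in 2 high RCs and between 304 and 1916 CPM in the other 6, and it reached at most 3.8 CPM in cells without Slc26a4 (difference 6.61). Hspa2, a chaperone of the Hsp70 family, was found in 5 of 8 high RCs at 372 to 3112 CPM and was at 0 in 3 of them and in all 4 others. Napa, a factor of membrane fusion, reached 100 CPM in 6 of 8 high cells and in 0 of 4 others. Of 77 IMCs, 29 held at least 100 CPM of Aqp5, 55 of Napa and 2 of Hspa2, and 5 of 17 MCs held as much Pax2.

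Lect1, which codes for the secreted cartilage protein chondromodulin, lay outside the naming rule for RCs alone but did not overlap. It ran from 999 to 11291 CPM in high RCs against 55.1, 670, 160 and 15.2 CPM (difference 5.29). Sox9, a transcription factor of otic epithelium, was at 226.8 to 1246 CPM in the high RCs and at 96.1, 0, 261.9 and 5.07 CPM in the others, and 1 cell without Slc26a4 thus reached into the high range (difference 4.91). Map1b, a microtubule protein and RC marker outside the rule, was at 2085 to 7810 CPM against 1475, 2725, 1.1 and 6.34 CPM (difference 5.53).

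The genes lower with Slc26a4 were led by Prss36 (chr7:127932638-127946725), which codes for a secreted serine protease with several protease domains. In order of falling Slc26a4 the high RCs held 0, 35, 2.01, 31.2, 0, 336, 187.03 and 502 CPM, and the 4 RCs without Slc26a4 held 1782, 3114, 6893 and 15805 CPM. The classes did not overlap, and the 3 high RCs with the least Slc26a4 had the most Prss36 of the 8. The difference was -7.69 (mean log2 4.59 ± 3.67, 8 cells, against 12.28 ± 1.37, 4 cells; SD).

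Nr2f1 (chr13:78188973-78199757), an orphan nuclear receptor, was at 383, 182.7, 460 and 624 CPM in RCs without Slc26a4 and at most 6.03 CPM in high cells (difference -7.49). Colgalt2, which adds galactose to collagen, was at 460 to 1778 CPM against at most 349 CPM (difference -6.85). Itih5, a protein that binds hyaluronan in the matrix, was at 2326, 363, 3643 and 5073 CPM in the cells without Slc26a4 (difference -6.99). It overlapped, since 2 high cells held 2370 and 1383 CPM. Apoe, a carrier of lipids, overlapped through 1 high cell at 2601 CPM, while the 4 others held 1077 to 6341 CPM (difference -6.79).

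Rcn2, a calcium-binding protein of the endoplasmic reticulum, was at 787 to 3324 CPM in RCs without Slc26a4, and 1 high cell reached 1048 CPM (difference -6.77). Gapvd1, a regulator of endosomes, and Suds3, a part of a histone deacetylase complex, had differences of -6.59 and -6.55, each with 1 or more cells overlapping. Frzb, a secreted Wnt antagonist, was at 1984, 17.9, 936 and 1.27 CPM in the 4 cells without Slc26a4. It was at 0 in 7 of 8 high cells and at 0.788 CPM in the last, and 2 of the 4 others were themselves low, so that its lack of overlap rests on small counts.

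**Figure D2:**
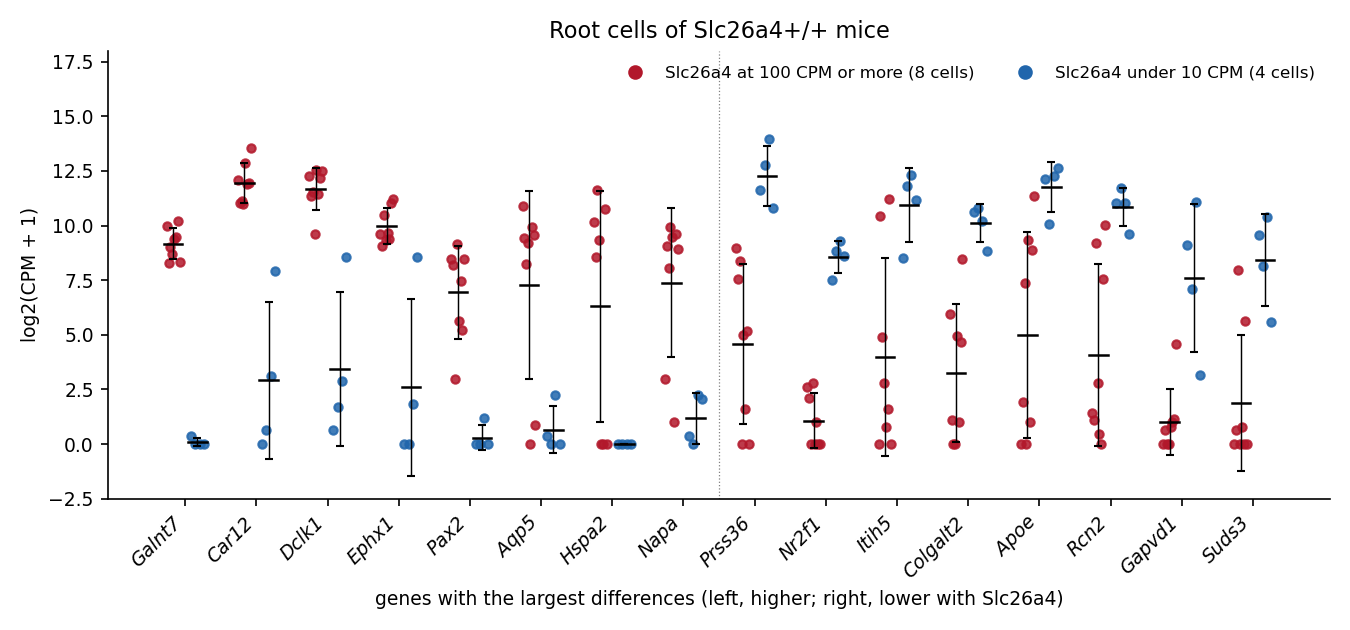
Log2(CPM + 1) of 16 genes in the RCs of Slc26a4+/+ mice, 8 with Slc26a4 (red) and 4 without (blue), 1 point per cell, with the mean (bar) and SD over cells (whisker). Car12, Galnt7, Dclk1, Ephx1 and Pax2 on the left and Prss36, Nr2f1 and Colgalt2 on the right show no overlap, and the other 8 genes overlap in 1 or more cells.

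Among 22 measured genes of acid-base and anion transport (of 38 listed), 6 were higher and 12 lower in RCs with Slc26a4. Besides Car12, the higher ones were Slc4a8, Slc4a11, Slc9a8, Slc26a11 and Car3, with differences of 1.47 to 3.25 and all with overlap. The largest lower difference was that of Slc9a2, a sodium-proton exchanger, at -5.54, with 150, 0, 849 and 866 CPM in cells without Slc26a4 and 100.8 CPM in 1 high cell. Car2, a carbonic anhydrase of the cytoplasm, had a difference of -3.84, and the 2 carbonic anhydrases Car2 and Car12 thus went opposite ways. The median of the list was -1.01, against 0.06 over all genes tested.

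Of 22 measured genes of sodium and potassium transport (34 listed), 10 were higher and 8 lower. Aqp5 led the first, followed by the mineralocorticoid receptor gene Nr3c2 (difference 4.04) and the kinase gene Sgk1 (3.18), and the potassium-chloride cotransporter gene Slc12a7 led the second (-4.10). Of 18 measured transcription factors of the lateral wall (33 listed), 7 were higher, among them Pax2, Sox9, Irx5 (2.72) and Sox10 (2.52), and 3 were lower, Eya1, Eya4 and Grhl2. Of 14 measured genes of the AP-2 complex and clathrin (15 listed), 8 were higher, led by the AP-2 subunit gene Ap2m1 (3.64), and 3 were lower. All members of this list overlapped between the classes.

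Of 9 measured RC markers outside the rule, 4 were higher, led by Map1b, and 3 were lower. The largest of the latter, Otog, which codes for a protein of the acellular membranes, was at 2863 and 363 CPM in 2 of the cells without Slc26a4 and at 0 in the other 2, and reached 1.11 CPM in 1 high cell. Clu, an abundant secreted chaperone, ran from 9082 to 127001 CPM in high RCs and was at 73958, 8283, 4204 and 6573 CPM in the others. Of 5 measured secreted and membrane proteins of the otic epithelium, 1 was higher and 3 lower. One of these, the tectorial membrane gene Ceacam16, was at 6732 CPM in 1 RC without Slc26a4, and Otog and Ceacam16 thus came mainly from different cells. The whole list summed to 688 to 7258 CPM in RCs without Slc26a4 and to 3.02 to 2682 CPM in high RCs. Map1b reached 100 CPM in 2 of 4 RCs without Slc26a4 and in 8 of 8 high RCs. Lum, a root gene of the rule, was at 0 in WT_211. All 4 RCs without Slc26a4 still had root scores of at least 8.79 and leads of at least 3.57. Whether both RC classes hold the same kind of cell was not tested.

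Markers of other cell types were found in the RCs at varied levels. SC markers outside the rule summed to 3570 to 8861 CPM in high cells and 4589 to 7813 CPM in the others. IMC markers summed to at most 1323 and 2368 CPM, and MC markers to 3.43 to 788.7 CPM in high cells and 501 to 1389 CPM in the others. Basal cell and fibrocyte markers reached 3194 and 1271 CPM, and hair cell and glial markers 347.9 and 1419 CPM. Red cell and granulocyte markers summed to 3.23 to 472 CPM in high cells and 0.29 to 167.3 CPM in the others, and macrophage markers to 1.01 to 21.1 and 0.88 to 15.4 CPM. Endothelial and pericyte markers gave 0 calls. Of the IMC, MC, and hair cell and glial markers 0 were higher, and 3 of 4, 1 of 3 and 3 of 4 were lower. Of 6 measured basal cell and fibrocyte markers 3 were higher and 0 lower. Of 7 genes of the dissociation response 2 were higher and 3 lower, and of 12 SC markers 3 and 5. Of 4 measured genes that the study named as reduced in PDCs lacking pendrin, 1 was higher and 2 were lower. Of 2 genes of the forkhead ionocyte programme 1 was lower, Atp6v1g3. The part of these genes in the differences above was not tested.

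Ordering all 12 RCs by Slc26a4 rather than splitting them gave Ephx1 (Spearman's rho 0.88), Becn1 (0.87), Car12 (0.83), Vprbp (0.83) and Anxa4 (0.82) as the genes most like it among 4212 at a mean of 50 CPM or more. Prss36 (-0.91) and Nr2f1 (-0.86) were the most unlike. These values rest largely on the gap between the classes and are a description of 12 cells, several of which share a run date.

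The directions of the 16 named RC genes were the same in each of the 3 run dates with both classes. The genes had been picked on these same cells, so that this largely follows from the choice and is no replication. On run date 4, 1 collection at P34 held cells of both classes, WT_280 without Slc26a4 and WT_281 and WT_282 with it. There Car12 was at 7.61 CPM against 2096 and 3993 CPM and Prss36 at 15805 CPM against 187.03 and 35 CPM. The size moved more than the sign: the difference of Itih5 was -7.31, -8.59 and -0.92 on run dates 1, 3 and 4.

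RCs of the other genotypes, which the choice of genes had not used, allowed the same split. It was made after the values of the Slc26a4+/+ cells were known. By the same limits there were 7 high RCs and 6 without Slc26a4 in Slc26a4-/- mice, and 2 and 4 in Slc26a4+/- mice. Slc26a4 RNA was thus present in cells labelled Slc26a4-/-, at up to 3959 CPM, and says nothing of a working protein. The root label of KO_133, an Slc26a4-/- cell without Slc26a4, is uncertain. Its root and spindle scores were 6.84 and 6.57, and its lead was 1.69. All 8 genes named as higher were also higher with Slc26a4 in both genotypes. Of the 8 named as lower, only 3 were lower in Slc26a4-/- and 6 in Slc26a4+/- RCs.

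These counts have to be read against a shift of all genes. Over the 8028 genes measured in Slc26a4+/+ RCs, 67.2% were higher with Slc26a4 in Slc26a4-/- RCs and 31.3% lower, and the median difference was 0.74. In Slc26a4+/- RCs the shares were 66.1% and 30.8% and the median 1.04. Of the 2577 genes called higher in Slc26a4+/+ RCs, 71.98% kept their direction in Slc26a4-/- RCs, and of the 2494 called lower, 35.1%, against the 67.2% and 31.3% of all genes. The high cells of Slc26a4-/- mice were deeper, with a median of 2555106 counts and 8950 genes against 1041022 counts and 5808.5 genes. In Slc26a4+/- mice the high RCs had fewer counts, 3026225 against 4166156 at the median, but more genes, 9036 against 7636, and all 6 cells came from run date 4. In Slc26a4-/- mice run date moved with the class too, since 5 of the 7 high cells but 2 of the 6 others came from run date 4. Age was uneven as well. Of the Slc26a4-/- RCs, the high cells KO_218, KO_219, KO_220 and KO_221 were of P34, as was KO_222 without Slc26a4. The rest were of P24 to P31. The part of depth, run date and age was not tested.

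The median difference of the 8 higher genes, picked for large differences in Slc26a4+/+ cells, was 5.04 in each genotype. With the 2 genotypes pooled Ephx1 was 1 of 3 genes (0.0335%) higher in all high RCs than in all others, at 247.5 to 934 CPM in 9 high RCs against at most 197.996 CPM in 10 others (difference 6.14). In Slc26a4-/- RCs Car12 was at 1895, 4505, 4280, 0, 1125, 270.6 and 2341 CPM in high cells and at 4.21, 1172, 469, 2.14, 0 and 0 CPM in the others. Dclk1 was at 0 in 1 high cell and at 4177 to 8438 CPM in the other 6, against at most 696 CPM, in KO_133. For Hspa2 and Napa the classes were much closer than in Slc26a4+/+ cells, with differences of 1.97 and 2.26 over both genotypes and 6 and 7 of 10 cells without Slc26a4 at 100 CPM or more.

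Of the lower genes, Itih5 and Nr2f1 kept the larger differences, -6.49 and -3.73 over both genotypes. Prss36 was much weaker, at -1.51. It stood at 38.4 to 11748 CPM in the high Slc26a4-/- RCs and at 355 to 24576 CPM in those without Slc26a4, and the classes overlapped. Gapvd1, Suds3 and Colgalt2 turned, with differences of 4.76, 3.10 and 1.97. Single cells stood out as well. Cell KO_105 held 1558 CPM of Slc26a4 but 0 of Car12, Galnt7 and Dclk1, with 11748 CPM of Prss36 and 3276 CPM of Itih5. Cell HET_271 held 0.604 CPM of Slc26a4 but 491 CPM of Galnt7 and 1447 CPM of Dclk1, with 0.151 CPM of Prss36.

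**Figure D3:**
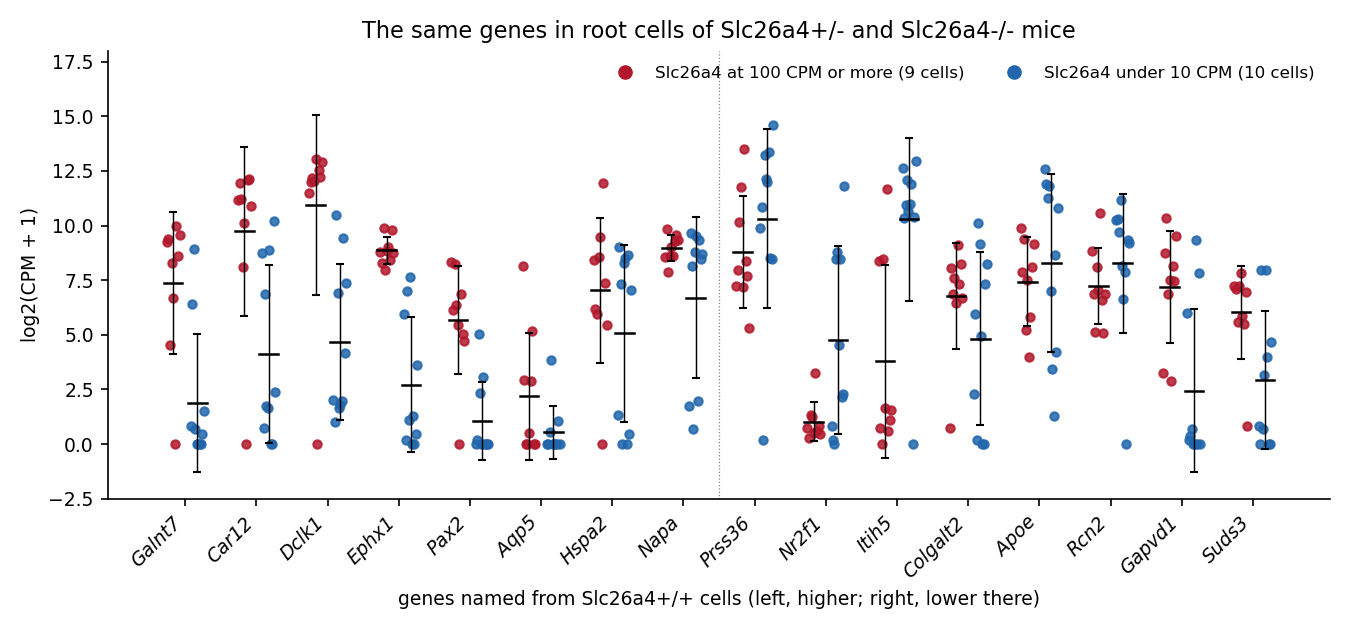
The same 16 genes in RCs of Slc26a4+/- and Slc26a4-/- mice, 9 with Slc26a4 (red) and 10 without (blue), as log2(CPM + 1) with the mean (bar) and SD over cells (whisker). The 8 genes on the left have higher means in the red cells, Ephx1 without overlap, while on the right only Itih5 and Nr2f1 keep differences beyond -2.

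Of 9204 genes measured in SCs, 2 (Slc26a4 and Apod) were higher in all 14 high SCs than in all 6 others, and 0 were lower (0.0217% of genes in all). As these classes hold more cells than those of the RCs, the counts of the 2 types cannot be compared. Apod, which codes for a secreted lipid carrier, ran only from 0.897 to 215.1 CPM in the high cells against at most 0.745 CPM, so that its lowest high cells stood at the level of a few counts. A difference of 1 was passed by 2177 genes upward (23.7%) and 2641 downward (28.7%), 52.3% of all genes. Without the 2 weak SCs, 2031 of 8816 genes (23%) were higher and 2852 (32.4%) lower. In that set 5 genes, Kat6b, Dpysl3, Lypla2, Fam160a2 and Tpr, were lower in all 14 high cells than in all 4 others, which is 0.0567% of genes, and the 2 higher ones (0.0227%) were again Slc26a4 and Apod. Of these 4 cells, WT_033 and WT_045 came from run date 1, which held 0 high SCs. WT_171 came from run date 3 and WT_290 from run date 4. Class and run date are thus largely mixed up in this set, and the part of run date was not tested.

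Id4 (chr13:48261228-48266026), an inhibitor of helix-loop-helix transcription factors, had the largest difference among the named SC genes, 7.29, and 6.54 without the weak SCs. It was at 5.73 to 2940 CPM with a median of 760 in high SCs. In the SCs without Slc26a4 1 cell, WT_171, held 293.2 CPM and the others at most 2.23 CPM. Cpxm2 (chr7:132032687-132154739), which codes for a protein of the carboxypeptidase family, was at 2.86 to 4536 CPM with a median of 1439, and 13 of 14 high cells reached 100 CPM. It was at 411 and 323 CPM in 2 SCs without Slc26a4 and at most 0.745 CPM in the other 4 (difference 6.79, and 5.47 without the weak SCs).

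A group of 4 genes was found in part of the high SCs and in 0 of the others at 100 CPM. Ptpn13, a tyrosine phosphatase, reached 100 CPM in 10 of 14 high cells, Ecel1, a protease of the neprilysin family, in 9, the apolipoprotein gene Apoa4 in 8 and Fam198a in 6. In the 6 SCs without Slc26a4 none of these passed 1.86 CPM. Their differences ran from 5.90 to 6.47, and from 5.75 to 6.51 without the weak SCs. Pvrl2, a nectin of cell junctions, and Nebl, an actin-binding protein, were at 57.3 CPM or more in each high SC. Pvrl2 also reached 444 CPM in 1 SC without Slc26a4, and Nebl passed 100 CPM in 2 of them, at up to 1247 CPM.

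The 8 named genes lower with Slc26a4 in SCs had differences of -5.09 to -6.17. Tkt, the transketolase of the pentose phosphate pathway, was at 272.5 to 1558 CPM in all 6 SCs without Slc26a4 and reached 100 CPM in 3 of 14 high cells (difference -5.51). Cars, the tRNA synthetase for cysteine, reached 100 CPM in 5 of 6 against 3 of 14 (difference -6.17), and Nadk, which makes NADP, in 6 of 6 against 4 of 14 (-5.61). Parn, an enzyme that shortens poly(A) tails, was at 8.69 to 790 CPM against at most 42.9 CPM (-5.52). These differences include the weak SCs. A weak SC held the highest value of Tkt (1558 CPM, WT_207), Nadk (1181 CPM, WT_160) and Parn (790 CPM, WT_160). For Cars the highest cell was WT_171, at 751 CPM.

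Tpr, a protein of the nuclear pore, was at 283.96 to 477 CPM in 5 SCs without Slc26a4 and at 0 in the weak cell WT_160, and 1 of 14 high cells reached 100 CPM. Its difference of -5.09 became -6.56 without the weak SCs. Fam160a2 showed the same with 0.358 CPM in WT_160 (-6.01 and -7.25). Stk40, a kinase-like protein, and Sart3, a splicing factor, had differences of -5.72 and -5.42, and -4.54 and -4.71 without the weak SCs.

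**Figure D4:**
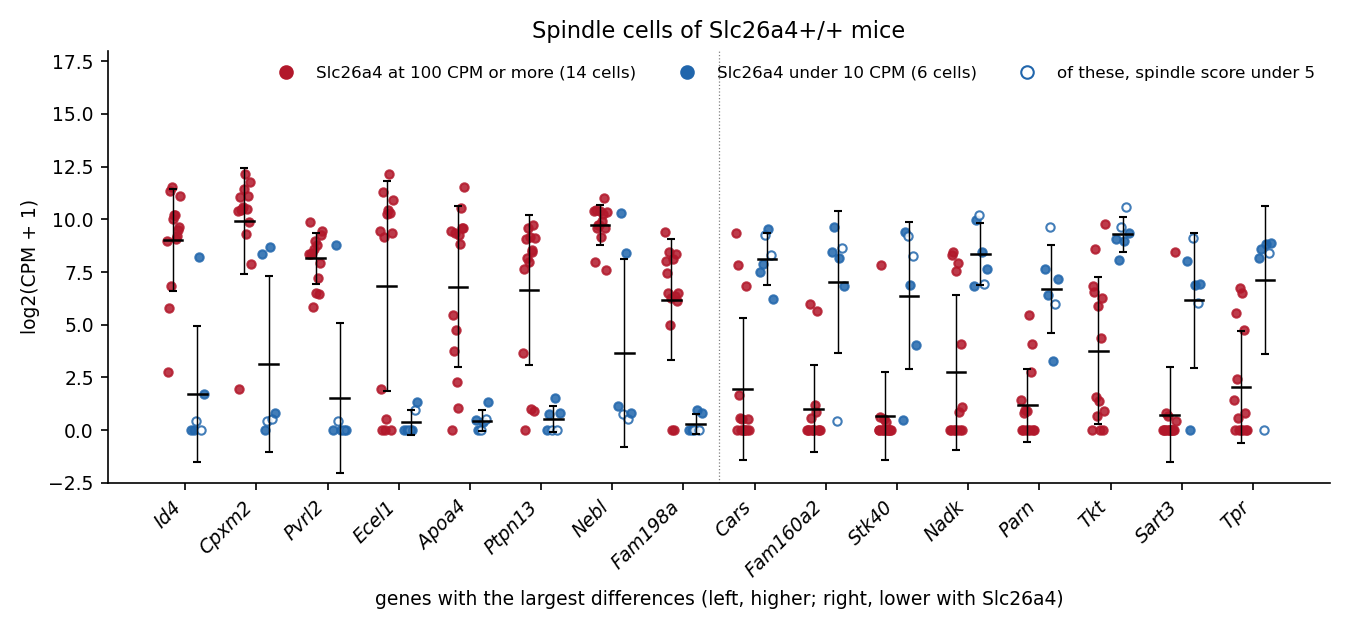
Log2(CPM + 1) of 16 genes in the SCs of Slc26a4+/+ mice, 14 with Slc26a4 (red) and 6 without (blue, open for the 2 weak SCs), with the mean (bar) and SD over cells (whisker). Each gene overlaps between the classes in at least 1 cell, and for Fam160a2 and Tpr the overlap comes from the weak SC WT_160.

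Several gene groups of the SCs rested on the 2 weak cells. Of 12 measured SC markers outside the rule, 12 were higher with Slc26a4, but without the weak SCs 1 was higher and 3 were lower. Of the 5 measured genes among the 6 that the study named as reduced in PDCs lacking pendrin, 4 were higher and then 0. That list was chosen by the study on these cells and includes 2 marker genes of the rule. Red cell and granulocyte markers went from 8 lower to 0 and macrophage markers from 4 lower to 0. Lateral wall transcription factors went from 12 higher and 1 lower to 7 and 7, and Sox9 from a difference of 3.64 to 0.98.

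Of the 23 acid-base and anion transport genes measured in SCs, 10 were higher and 3 lower, and without the weak SCs 8 of 22 were higher and 4 lower. Slc26a2, a sulphate transporter, had differences of 3.44 and 3.49. Car12 had a difference of 1.79, which turned to -0.44 without the weak SCs.

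Of 20 sodium and potassium transport genes 12 were higher and 0 lower, and then 9 and 5. Sgk1, a kinase that raises sodium transport, kept the largest difference, 5.80 and 5.41. It reached 100 CPM in 9 of 14 high SCs and at most 24.6 CPM in the others. Atp1b1, a subunit of the sodium pump, was at 544 to 4147 CPM in high cells. In the 4 SCs without Slc26a4 that were not weak it was at 360, 1123, 2559 and 1379 CPM (difference 1.07). Of the AP-2 and clathrin genes 2 of 15 were higher and 7 lower, and then 3 and 5 of 14, in contrast to 8 and 3 in RCs. This contrast was not tested.

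The remaining lists are given with all 6 SCs without Slc26a4 and then with 4. RC markers gave 4 of 4 higher and then 3, and basal cell and fibrocyte markers 3 higher and 1 lower of 6, then 2 and 1. IMC markers gave 2 higher and 1 lower of 4 both times, and MC markers 3 higher and 4 lower of 7, then 2 and 4. Endothelial and pericyte markers gave 2 of 2 higher, then 1, and hair cell and glial markers 1 of 2 lower both times. The dissociation response had 0 higher and 2 lower of 10 genes, and then 1 and 7. The forkhead ionocyte programme had 0 calls of 2 genes, then 1 lower, and the secreted and membrane proteins of the otic epithelium 1 higher of 3, then 1 higher and 1 lower.

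In SCs of the other genotypes, 4 with Slc26a4 and 7 without, 6 of the 8 higher and 6 of the 8 lower named genes kept their direction, where 50.5% of all genes were higher and 49.5% lower. Cpxm2 and Apoa4 had differences of 3.91 and 3.70 and Tkt of -4.53, while Ptpn13 turned to -1.92 and Id4 was at 0.82. One of the 7, HET_277, was as weak as the 2 set apart above, with a spindle score of 2.21 and a lead of 1.01, and its red cell and granulocyte markers summed to 150459 CPM (at most 298.7 CPM in the other 6). Without it, again 6 of 8 in each direction kept their sign, where 53.3% of 8334 genes were higher and 46.7% lower. Cpxm2 was then at 2.90, Apoa4 at 3.39, Tkt at -4.14 and Id4 at 0.09, and Cars and Nadk were positive, at 0.37 and 1.16. The 6 cells left were all of Slc26a4-/- mice and run date 2, while 2 of the 4 high cells were of Slc26a4+/- mice and run date 4. The part of genotype and run date was not tested. Some labels are uncertain here too. KO_118, KO_121 and KO_128 had leads of 1.17, 1.57 and 1.51. KO_121 held 5866 CPM of Slc26a7, a Reissner's membrane gene of the rule, and 18801 CPM of Lrp2. KO_095 held 0.97 CPM of Anxa1 and 0.485 CPM of P2rx2.

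Differences in SCs and RCs were about as often opposite as alike. Of 6871 genes measured in both, 598 were higher with Slc26a4 in each type, which is 33.9% of the SC calls and 26.9% of the RC calls among these genes, and 530 were lower in each (29.01% and 25.2%). A further 566 were higher in SCs and lower in RCs, and 587 were lower in SCs and higher in RCs. The SC calls in these counts include the weak SCs. Of the genes called in both, Lect1 (differences 5.04 in SCs and 5.29 in RCs), Dclk1 (4.52 and 8.24), Dapk1, a kinase of cell death pathways (5.10 and 4.24), and the sodium leak channel gene Nalcn (5.47 and 3.77) were among the highest. Il17rd, AU021092, Cttn and Tsc22d1 completed the 8 highest. In SCs the Lect1 and Dclk1 differences were 2.04 and 1.74 without the weak SCs, and Nalcn kept 5.56.

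The 8 lowest in both were Cars, Top1, Coro7, Ddx46, Dlst, Ranbp10, Nos1ap and Apba3. Top1, the DNA topoisomerase that relaxes supercoils, had differences of -4.29 and -4.84. Cars had -6.17 and -4.61. The RC difference of Ranbp10, -3.56, rested on 2 cells of run date 4, as the other 2 RCs without Slc26a4 held 0, and it was -1.80 without WT_280 and 0.17 without that run date.

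Prss36 went opposite ways. Over all 22 SCs it was the gene most like Slc26a4 of 4519, with Spearman's rho 0.84 (0.82 over 20 SCs without the weak ones), ahead of Arl4c (0.81), Apoa4 (0.80), Id4 (0.77) and Ptpn13 (0.69). Over the 12 RCs it was the most unlike, at -0.91. High SCs held 0 to 1638 CPM of Prss36 with a median of 232.05, and SCs without Slc26a4 at most 40.96 CPM, a difference of 5.40 and of 4.63 without the weak SCs. High RCs were lower than high SCs, with a median of 33.1 CPM and at most 502 CPM. At 100 CPM or more were 3 of 8 high RCs and 10 of 14 high SCs. The RCs without Slc26a4 stood above both, at 1782 CPM and more. In the other genotypes rho was 0.17 over 12 SCs and -0.42 over 19 RCs. Prss36 was singled out after its values were seen. Cpxm2 also differed in sign, at 6.79 in SCs and -5.85 in RCs.

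**Figure D5:**
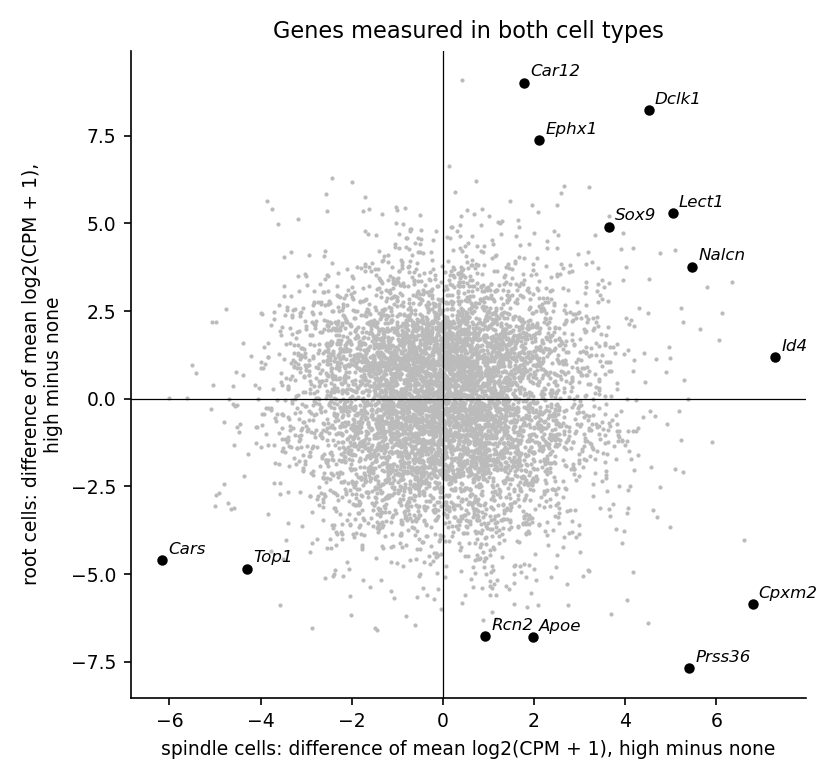
Difference of mean log2(CPM + 1), cells with Slc26a4 minus cells without, in SCs (x axis) and RCs (y axis) for the 6870 genes measured in both other than Slc26a4, with 13 genes named. The SC values include the weak SCs. The cloud has no common direction, Lect1 and Dclk1 lie high in both, and Prss36 and Cpxm2 lie high in SCs and low in RCs.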

How the data were processed

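Single cells of the cochlear stria vascularis were profiled with Smart-Seq2. Reads had been pseudo-aligned by the authors with Kallisto (mouse transcripts of GRCm38). They deposited an estimated count per cell for each of 47752 genes, written as whole numbers, and a TPM for each transcript. As TPM corrects for length and CPM does not, levels were compared within a gene only. The table holds 17 columns of no sample listed here, which were not used. Depth over all cells ran from 1848 to 7932729 counts, and over the 32 cells compared from 331456 to 3416244. Values were scaled to CPM, and cells of each type were compared by the difference of mean log2(CPM + 1), with a pseudocount of 1 CPM, among genes at a mean of at least 10 CPM. This understates the change of low genes. Genes at a difference of at least 1 were called.

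Named genes were the 8 with the largest differences in each direction among called genes at 50 CPM or more in the higher cells, for which at least 80% of cell pairs (high, none) stood in that order, and the genes most like Slc26a4 by Spearman's rho. Score genes were left out. The members, the 17 gene lists and the named genes were chosen with earlier results of these data known. The weak SCs, the split of the other genotypes, the promoters and motifs, and genes said to lie outside the rule were chosen after their values were seen. As cells are not replicates, no model was fitted, and the calculation was tested on simulated data. Cells were picked singly, and no doublet caller was run. Python 3.11.15, pandas 2.3.3 and edgeR 4.0.16 (TMM scaling, an alternative) were used. Gene positions came from GENCODE M21 on GRCm38. Alternatives were other scalings, filters, pseudocounts, limits, a fixed depth, run date as a block, and leaving out each cell or run date. The values of 1 listed gene are not reported here.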

Additional observations from a re-analysis of the deposited data

Results flagged for a closer look

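Of 69 sets of values examined, 10 held a cell far from the others of its class. Chance alone flags about 1 in 20. All values here are log2(CPM + 1).

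In SCs without Slc26a4, cell WT_171 stood high for Id4 (8.20, others at most 1.69) and cell WT_045 high for Pvrl2 (8.80, others at most 0.44). WT_045 stood low for Sart3 (0, others at least 6.06). The weak SC WT_160 stood low for Fam160a2 (0.44, others at least 6.83) and Tpr (0, others at least 8.15).

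In RCs with Slc26a4, cell WT_028 stood low for Dclk1 (9.61, others at least 11.34), still above every RC without Slc26a4, and WT_075 high for Gapvd1 (4.56, others at most 1.13). In RCs without Slc26a4, 3 values stood apart only because the rest were at or near 0: Galnt7 in WT_037 (0.37), Pax2 in WT_280 (1.18) and Aqp5 in WT_280 (2.26).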

How the results depend on the processing

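With 4 RCs and 6 SCs in the smaller classes, counts of called genes moved with the settings. Named genes nearly all kept their direction. They had been picked on these same cells for large differences, so that this was largely fixed by the choice. Over 31 genes named for RCs, 1 of 836 values under the alternatives turned sign, Ranbp10, which ranged from -4.91 to 0.17 over the run dates left out and was positive without run date 4, and over 31 genes named for SCs 0 of 1114 did. A filter at a mean of 50 CPM gave 1424 higher and 1253 lower genes in SCs and 1576 and 1371 in RCs. A pseudocount of 10 CPM gave 1177 and 1366 in SCs and 1524 higher in RCs. Leaving out 1 cell or run date at a time gave 1561 to 3274 higher and 2130 to 4208 lower genes in SCs, and 2231 to 3522 and 1988 to 3234 in RCs. In SCs the counts passed 1.5 times the main ones without run date 3 (4208 lower), which leaves 3 cells in each class, and without run date 4 (3274 higher), which leaves 12 and 5. The cause was not tested. The share of higher among called genes was 45.2% in SCs and 50.8% in RCs. By the log2 ratio of mean CPM it was 55.3% (2877 and 2324 genes) and 60.9% (3556 and 2287). With Slc26a4 at 200 CPM or more against under 1 CPM it was 57.3% and 63.9%, which drops WT_290 and WT_292. No pairing by mouse was possible because the groups share no replicate numbers and no cell is tied to a mouse. With run date as a block, an alternative chosen after seeing the data that leaves 13 and 4 SCs and 7 and 4 RCs, 2423 genes were higher and 3102 lower in SCs, and 2784 and 2392 in RCs. Counts without the 2 weak SCs, chosen after seeing the data, stand in the report.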
